A study of Mus musculus with 5 samples.

Results

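The genes described here handle iron in cells and were measured in 6DT1 cells, a highly metastatic mouse mammary carcinoma line. They are the transferrin receptor *Tfrc* with *Steap3* and *Slc11a2* (uptake), *Fth1* and *Ncoa4* (storage and its release), *Slc40a1* and *Hmox1* (export and haem breakdown), and *Ireb2*, *Aco1* and *Fbxl5* (iron sensing). They make up 10 of the 19938 genes on the arrays, and the probe set of each gene was chosen by its highest mean log2 value over the 5 arrays. The list was drawn up when the lower level of *Tfrc* in the *Arid4b* knockdown lines was already known, so its difference is given as a description without a p-value. Each array held total RNA from 1 line grown in DMEM with serum. Hairpin 3 (H3) and hairpin 4 (H4) are lentiviral pLKO.1 shRNA lines with low ARID4B protein, at 0.19 and 0.15 of the scrambled control by densitometry, and formed the knockdown cohort of 2 lines. Control cells were 3 lines. They were hairpin 5 (H5), which also targets *Arid4b* but left the protein at 1.02, the line with the pLKO.1 scrambled control, and untransduced cells, with the protein at 1.09. All lines except the untransduced one had been selected with puromycin. Each stable line was a pool of clones.

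Cells take up most of their iron as transferrin bound to the receptor encoded by *Tfrc*. In the endosome the iron is released, reduced by the ferrireductase STEAP3 and moved to the cytosol by the divalent metal transporter DMT1, the product of *Slc11a2*. Surplus iron is stored in ferritin, whose heavy chain is encoded by *Fth1*, and leaves the cell through ferroportin, the product of *Slc40a1*. The iron regulatory proteins IRP1 (*Aco1*) and IRP2 (*Ireb2*) bind iron-responsive elements in transcripts when iron is low. This protects the *Tfrc* mRNA from decay and blocks translation of ferritin and ferroportin. Arrays measure mRNA only, so control of translation is not seen here. Dividing cells are known for high *Tfrc* expression, since enzymes of DNA synthesis need iron.

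The H3 array stood apart, with a median over all genes of 6.83 against 6.73 to 6.77 on the other arrays and an SD over genes of 2.03 against 2.10 to 2.13. Precision is limited by having only 5 arrays. Differences were tested with limma over all 19938 genes. Of these, 1517 (7.61%) were lower and 866 (4.34%) were higher in the knockdown lines where calls were made at the study's threshold, an unadjusted p below 0.05. Higher genes made up 36.3% of those calls, 21.4% with array medians subtracted, 52.6% after another quantile normalization and 71.2% without H4, when 4901 genes were higher. No gene (0%) passed an adjusted p under 0.05 with limma, against 2383 at the unadjusted threshold, while an unmoderated equal-variance test passed 3 after adjustment. With limma 1266 genes passed after adjustment without H4, where H3 was the lone knockdown line, and 4 without the lowest 1 in 3 genes. Both knockdown lines lay below all control lines in 13.5% of genes and above them in 13.9%. *Arid4b* itself was at 6.88 and 7.35 in the knockdown lines and at 8.24 to 8.36 in the control lines. P-values measure the spread between lines with 1 array each. Log2 values of different probe sets depend on their probes, so levels are compared between lines.

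*Tfrc* mRNA lay lower in H3 and H4 than in any control line. Its log2 expression (probe set 10435075) was 9.24 and 9.23 in the H3 and H4 lines and 10.12, 9.73 and 10.65 in the H5, scrambled and untransduced lines. H3 and H4 were nearly equal, and the cohorts did not overlap, with a gap of 0.49 between H3 and the scrambled control. The control lines ranged over 0.92 on the log2 scale, about as far as the cohorts were apart. The log2 difference between the cohorts was -0.93 (standard error 0.28), or 47.6% less signal on the linear scale, the 152nd lowest difference among all genes. Untransduced cells stood 0.72 above the mean of the selected control lines, and without them the difference was -0.69, while without the scrambled control it was -1.15. It was -0.94 without H3 and -0.93 without H4. In bulk RNA, fewer cells with the transcript and less transcript per cell cannot be told apart.

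**Figure D1:**
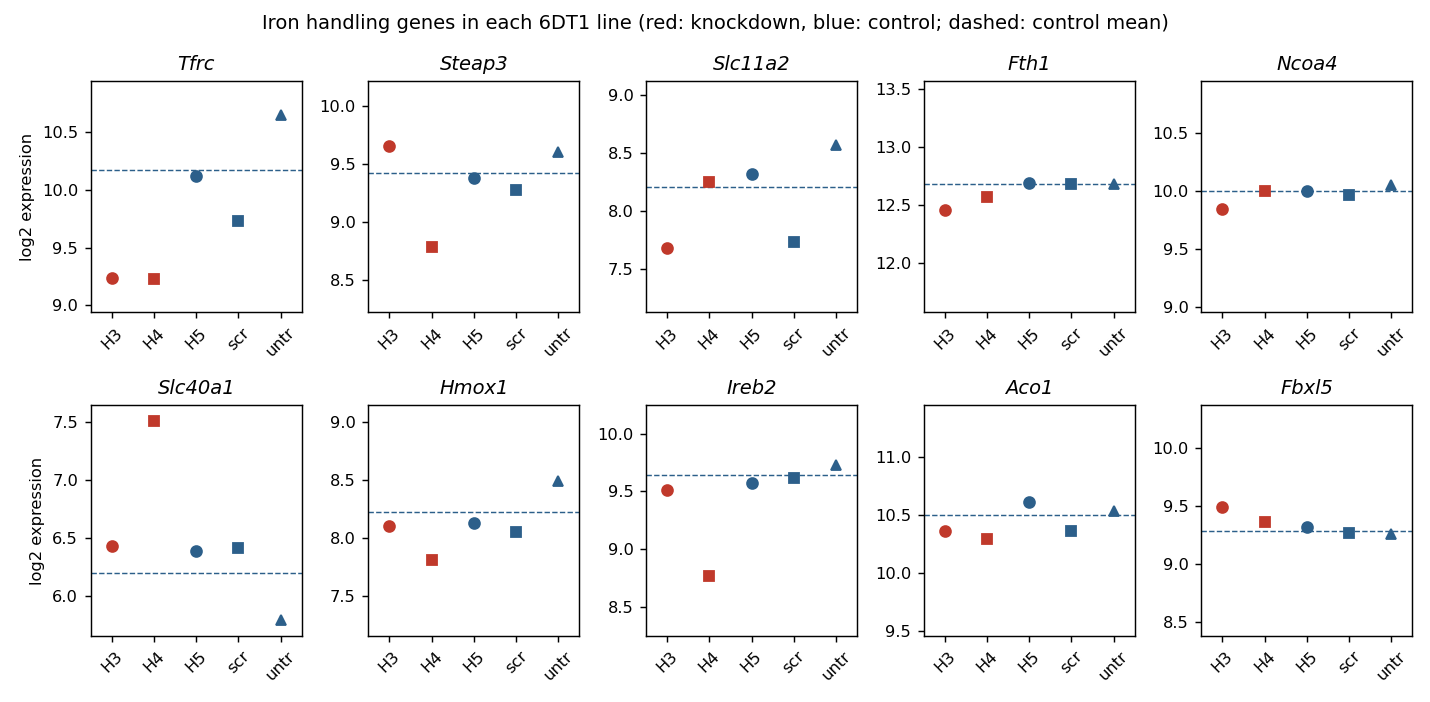
Log2 expression (vertical axes, each spanning the same number of log2 units) of the 10 iron handling genes in each of the 5 lines (scr, scrambled control; untr, untransduced), with 1 point per array. *Tfrc* is lowest in H3 and H4 at 9.24 and 9.23, *Slc40a1* is highest in H4 at 7.51, and *Fth1* lies in a narrow band.

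The start of *Tfrc* is shown because it is the gene with the largest difference of the 10. RefSeq gives 2 start sites for it on the plus strand (GRCm38.p6), and the bases around the upstream one lie at chr16:32608771-32608920. Capitals mark the letters CCAAT, the core bound by the factor NF-Y, ACGTG, the core of a hypoxia-response element, and TGACG, the first bases of a cyclic AMP-response element, each searched on both strands.
Tfrc: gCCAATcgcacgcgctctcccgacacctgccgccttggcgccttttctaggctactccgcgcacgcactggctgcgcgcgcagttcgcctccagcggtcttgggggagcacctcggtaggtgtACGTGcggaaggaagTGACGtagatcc
The bases just before the downstream of both *Fth1* starts, at chr19:9982521-9982645 on the plus strand, are given for comparison with the storage gene. Here the capitals are CCAAT read on the other strand. The *Fth1* stretch ends before the start, whereas that of *Tfrc* runs past it. TGACG was also present in this *Fth1* window, at positions 11 to 15 from the start, beyond the bases shown.
Fth1: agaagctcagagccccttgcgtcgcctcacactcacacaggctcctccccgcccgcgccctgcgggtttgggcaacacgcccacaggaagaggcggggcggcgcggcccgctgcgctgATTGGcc
In these windows of 250 bases before and 50 after a start, CCAAT was present in 37.4%, ACGTG in 19.6% and TGACG in 20.8% of 32851 promoters. The letters in the first *Tfrc* window therefore occur in many promoters, and they are a description and not binding sites. Promoter windows were at hand for 6 of the 10 genes, and those of *Ireb2* and *Aco1* held none of these letters. The iron-responsive elements themselves lie in transcript ends that were not analysed here.

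The other genes of uptake differed more between lines of a cohort than between the cohorts. *Steap3* (probe set 10357249) was at 9.65 and 8.78 in the H3 and H4 lines and 9.38, 9.28 and 9.61 in the H5, scrambled and untransduced lines. H3 was thus the highest and H4 the lowest of the 5 lines, 0.87 apart. The log2 difference of the cohorts was -0.20 (95% interval -0.96 to 0.55), and it was -0.64 without H3 and turned to 0.23 without H4. *Slc11a2* (10432573), which acts downstream of the receptor in the endosome, was at 7.68 and 8.25 in the H3 and H4 lines and 8.32, 7.73 and 8.57 in the H5, scrambled and untransduced lines. Here H3 and the scrambled control formed the low end and the remaining lines the high end, across the cohorts. Its log2 difference was -0.25 (95% interval -1.07 to 0.58), and without H3 it was 0.039.

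Ferritin heavy chain mRNA was slightly lower in the knockdown lines and nearly constant among the controls. *Fth1* (10461402) was at 12.45 and 12.57 in the H3 and H4 lines and 12.69, 12.68 and 12.68 in the H5, scrambled and untransduced lines. The control lines lay within 0.0099 of each other, and both knockdown lines lay below all of them. The log2 difference was -0.17 (standard error 0.052, unadjusted p = 0.0239, adjusted p = 0.352 from limma over all genes), or 11.3% less signal. The call was lost when any control line was omitted, with unadjusted p-values from limma of 0.0755 (H5), 0.0651 (scrambled) and 0.0605 (untransduced), and when the lowest 1 in 3 genes were omitted (0.0653). *Ncoa4*, the receptor that delivers ferritin to autophagosomes, was at 9.84 and 10.00 in the H3 and H4 lines and 10.00, 9.96 and 10.05 in the H5, scrambled and untransduced lines, and only H3 stood apart. It had a second probe set of the same annotation (10413839 beside 10399198) that read 9.83 and 9.95 in H3 and H4 and 9.96, 9.92 and 10.01 in the controls. The log2 differences were -0.082 and, for the second, -0.075. Whether the probe sets share probes or detect a copy of the gene was not tested.

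Ferroportin mRNA was highest in H4. *Slc40a1* (10354374), the iron exporter of mammalian cells, was at 6.43 and 7.51 in the H3 and H4 lines and 6.39, 6.41 and 5.79 in the H5, scrambled and untransduced lines. H4 stood 1.08 above H3, while H3 differed from H5 and the scrambled control by less than 0.1. In all lines but H4 the value lay below the median over all genes on that array, 6.73 to 6.83. The cohorts did not overlap, but the gap between them was only 0.018. The log2 difference was 0.77 (standard error 0.39, adjusted p = 0.484 from limma), with a 95% interval from -0.26 to 1.80. It was 1.31 without H3 and 0.23 without H4. *Hmox1* (10572897), the haem oxygenase that frees iron from haem, was at 8.11 and 7.81 in the H3 and H4 lines and 8.13, 8.05 and 8.49 in the H5, scrambled and untransduced lines. H4 was the lowest line and the cohorts overlapped. Its log2 difference was -0.26 (95% interval -0.72 to 0.19).

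Among the sensors, *Ireb2* was low in H4 alone. Its log2 expression (10585444) was 9.51 and 8.77 in the H3 and H4 lines and 9.57, 9.61 and 9.73 in the H5, scrambled and untransduced lines. H4 lay 0.75 below H3, and H3 lay 0.057 below H5, so that the cohorts did not overlap although H3 was close to the controls. The log2 difference was -0.50 (standard error 0.23, unadjusted p = 0.0912, adjusted p = 0.477 from limma), and it was -0.87 without H3 and -0.12 without H4. With array medians subtracted it was -0.54 (unadjusted p = 0.0437), and after another quantile normalization -0.42 (unadjusted p = 0.149, both from limma). *Aco1* (10503966), whose protein is IRP1 or, with an iron-sulphur cluster, the cytosolic aconitase, was at 10.36 and 10.30 in the H3 and H4 lines and 10.61, 10.36 and 10.54 in the H5, scrambled and untransduced lines. H3 lay only 0.0012 below the scrambled control. The log2 difference of -0.17 had a 95% interval from -0.41 to 0.058. Without the scrambled control it was -0.24 (unadjusted p = 0.0208 from limma). It did not pass without H5 (-0.12, unadjusted p = 0.25 from limma) or the untransduced line (-0.16, 0.23). After another quantile normalization it was -0.098 (unadjusted p = 0.287 from limma). *Fbxl5* (10529801), the iron-binding F-box protein that targets IRP2 for degradation when iron is plentiful, was at 9.49 and 9.37 in the H3 and H4 lines and 9.32, 9.27 and 9.26 in the H5, scrambled and untransduced lines. It was higher in both knockdown lines than in any control line by 0.046 or more, with a log2 difference of 0.15 (standard error 0.058, unadjusted p = 0.0550, adjusted p = 0.429 from limma). The *Fbxl5* difference was 0.21 without H4 and 0.083 without H3. It passed the unadjusted threshold in limma after another quantile normalization (0.24, unadjusted p = 0.0256). It did not pass with array medians subtracted (0.10, unadjusted p = 0.104) or with trend and robust options (unadjusted p = 0.1415).

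**Figure D2:**
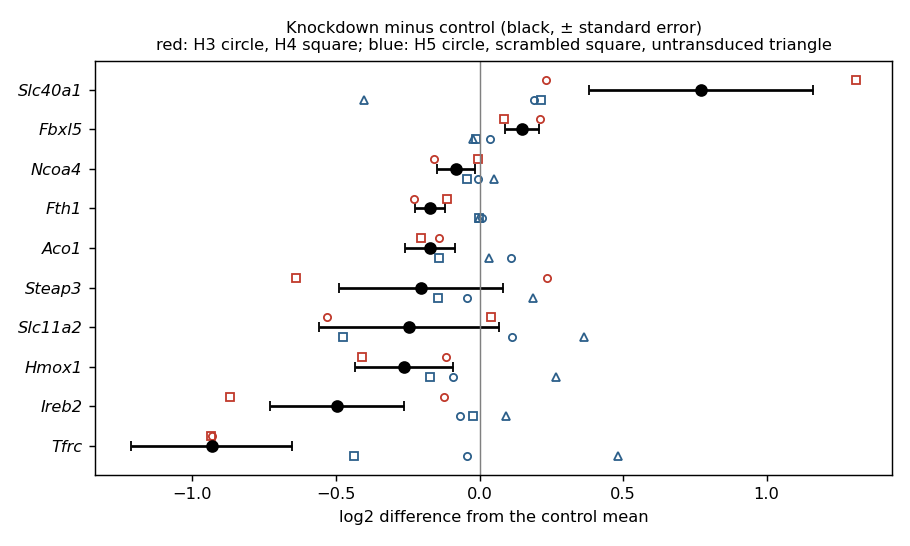
Log2 difference of the knockdown from the control cohort for each of the 10 genes (black points, bars ± standard error from limma), with each line's own difference from the control mean above (knockdown lines, red) and below (control lines, blue). *Tfrc* lies at -0.93 with H3 and H4 together, whereas H3 and H4 are apart for *Slc40a1*, *Ireb2* and *Steap3*.

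Of the 9 genes other than *Tfrc*, 1 (*Fth1*) passed the unadjusted threshold, beside 7.61% of all genes in that direction, and none of the 9 was higher at that threshold. Their adjusted p-values from limma ran from 0.352 to 0.713. Over the 10 genes both knockdown lines lay below all control lines in 4 (*Tfrc*, *Fth1*, *Ireb2*, *Aco1*) and above them in 2 (*Slc40a1*, *Fbxl5*), beside 13.5% and 13.9% of all genes. The gap between the cohorts was 0.0012 in *Aco1*, 0.018 in *Slc40a1*, 0.046 in *Fbxl5*, 0.057 in *Ireb2*, 0.11 in *Fth1* and 0.49 in *Tfrc*. The median difference of the 10 genes was -0.19, against 0.033 over all genes. *Tfrc*, whose lower level was known when the list was drawn up, is counted among the 4 genes and in this median.

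The lines of a cohort differed from each other in several of these genes. H4 and H3 were at least 0.5 apart on the log2 scale in 4 of the 10 genes, *Slc40a1* (1.08), *Steap3* (-0.87), *Ireb2* (-0.75) and *Slc11a2* (0.57, each H4 minus H3), beside 5.85% of all genes. *Tfrc*, at -0.0054, was not among them. Untransduced cells were at least 0.5 from the mean of H5 and the scrambled control in 3 genes, beside 1.96% of all genes. These were *Tfrc* (0.72), *Slc40a1* (-0.61) and *Slc11a2* (0.54), so that cells without vector and puromycin had more receptor and transporter mRNA and less ferroportin mRNA than both selected control lines. With 1 array per line these differences have no replicate check and were not tested. Transduction, selection and the array itself cannot be told apart in this comparison.

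The profile of *Tfrc* over the 5 lines was shared by genes with other roles. The 5 genes nearest to it, by the root mean square distance of log2 values centred on each gene's mean, were *Lsm3* (0.078), a component of spliceosomal ribonucleoproteins, *Mboat1* (0.090), an acyltransferase, *Wdr76* (0.094), *Nup93* (0.10), a nuclear pore scaffold protein, and *Rbmx* (0.115), an RNA-binding protein. *Lsm3*, the nearest, was at 9.28 and 9.13 in the H3 and H4 lines and 10.01, 9.77 and 10.50 in the H5, scrambled and untransduced lines. Among the other 9 of the 10 iron handling genes, *Hmox1* was nearest, at a distance of 0.37 with 1092 genes closer. *Slc40a1* was the farthest of these at 1.03, with 19911 genes closer. The genes were ranked by this likeness over 5 arrays, and no test applies.

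Proliferation genes were lower in the same lines as *Tfrc*, and their list medians ordered the 5 lines as *Tfrc* did, but with H3 and H4 well apart. Of 12 measured genes, 10 were lower and 1 (*Myc*) was higher at the unadjusted threshold, beside 7.61% and 4.34% of all genes. The median of the 12 was -0.85. *Mki67* was at 10.04 and 9.29 in the H3 and H4 lines and 10.74, 10.55 and 10.61 in the H5, scrambled and untransduced lines, and *Rrm2*, the iron-dependent subunit of ribonucleotide reductase, was at 10.80, 9.96, 11.52, 11.20 and 11.66 in that order. Set against the control mean, the list median was -0.45 for H3 and -1.23 for H4, whereas *Tfrc* was at -0.93 and -0.94. Among the control lines the scrambled one was lowest and the untransduced one highest in both. The part of proliferation in the level of *Tfrc* was not tested.

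**Figure D3:**
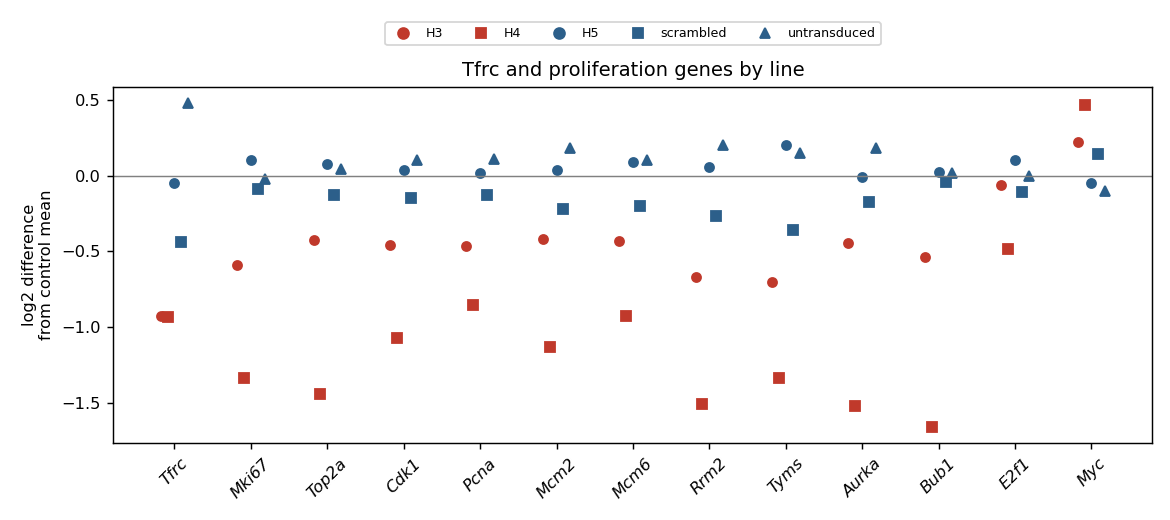
Log2 difference from the control mean (vertical axis) in each of the 5 lines for *Tfrc* and 12 proliferation genes, with 1 point per array. H4 lies well below H3 in *Mki67* and *Rrm2*, and level with it in *Tfrc*, at -0.94 and -0.93.

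Beyond the 10 genes, 9 lists of iron genes held 115 further genes. At an unadjusted p below 0.05 from limma 18 of them (15.7%) were lower, 8 (6.96%) were higher and 89 were neither, beside 7.61% and 4.34% of all genes, and none passed after adjustment over all genes. Their median was -0.017. In the list of transferrin cycle and other uptake genes, 5 of 16 further genes were lower and the other 11 passed in neither direction, with a median of -0.24. *Steap2*, a second endosomal metalloreductase, was lower with a log2 difference of -0.38 (standard error 0.12), *Slc39a14*, which imports iron not bound to transferrin, with one of -0.35 (0.080), and *Vps35*, a subunit of the retromer that sorts endosomal cargo, with one of -0.31 (0.065). *Steap2* was at -0.13 with its probe sets averaged and at -0.25 without H4, and its call was lost there and without H5 or the untransduced line. *Hfe*, which binds the transferrin receptor, was lower at -0.29 (0.095), a call lost without H3, H4 or the scrambled control. The count was 2 with an unmoderated equal-variance test, 3 without H3, 2 without H4 and 3 without the scrambled control. None of 9 further storage and ferritin turnover genes passed the unadjusted threshold in either direction with limma, at a median of -0.016, and *Ftl1*, the ferritin light chain, was at -0.092.

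Calls went both ways in the export list, were all lower in the sensing list and were all higher in the mitochondrial list. Over all genes, 7.61% were lower and 4.34% were higher at the same unadjusted threshold, and the counts below stand beside these shares. Of 12 further genes of export and its control, *Flvcr1*, a haem exporter, was lower (-0.45, standard error 0.13) and *Bmp6*, which signals to hepcidin, was higher (0.34, standard error 0.12). Neither call held throughout, with *Flvcr1* at -0.26 with probe sets averaged and -0.30 without H4, and *Bmp6* at 0.18 without H3, and both lost without H5 or the untransduced line. Among 10 further genes of sensing and its control, 3 were lower. These were *Cul1* (-0.35, standard error 0.081) and *Rbx1* (-0.24, standard error 0.057), subunits of the ubiquitin ligase that FBXL5 joins, and *Ciao3* (-0.12), of cytosolic iron-sulphur assembly. The *Cul1* call was lost without either knockdown line, and that of *Ciao3* was lost without any 1 line and after another quantile normalization, where it was at -0.028. Of 6 further transcripts known to carry an iron-responsive element, *Epas1*, encoding the hypoxia factor HIF-2alpha, was lower (-0.20, standard error 0.050) and 5 did not pass. In the mitochondrial list of 18 genes none was lower and 3 were higher, *Glrx5* (0.36), *Slc25a37* (0.30), the mitochondrial iron importer mitoferrin, and *Iba57* (0.16), which had the same value on all 3 control arrays. *Glrx5* was at 0.18 without H4 and *Iba57* at 0.041 with probe sets averaged, neither past the threshold. The calls of *Glrx5* and *Iba57* were also lost without any 1 control line, and that of *Slc25a37* without H3, H4 or H5. In haem synthesis and transport, 2 of 16 were lower, *Cpox* (-0.71, standard error 0.21), which makes protoporphyrinogen, and *Abcb10* (-0.45, standard error 0.083). *Cpox* was at -0.44 without H4, and its call was lost there and without H5 or the untransduced line. In the ferroptosis list, 1 of 13 was higher (*Sat1*, 0.42) and 1 was lower (*Lpcat3*, -0.30, a call lost without H3 or H4).

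**Figure D4:**
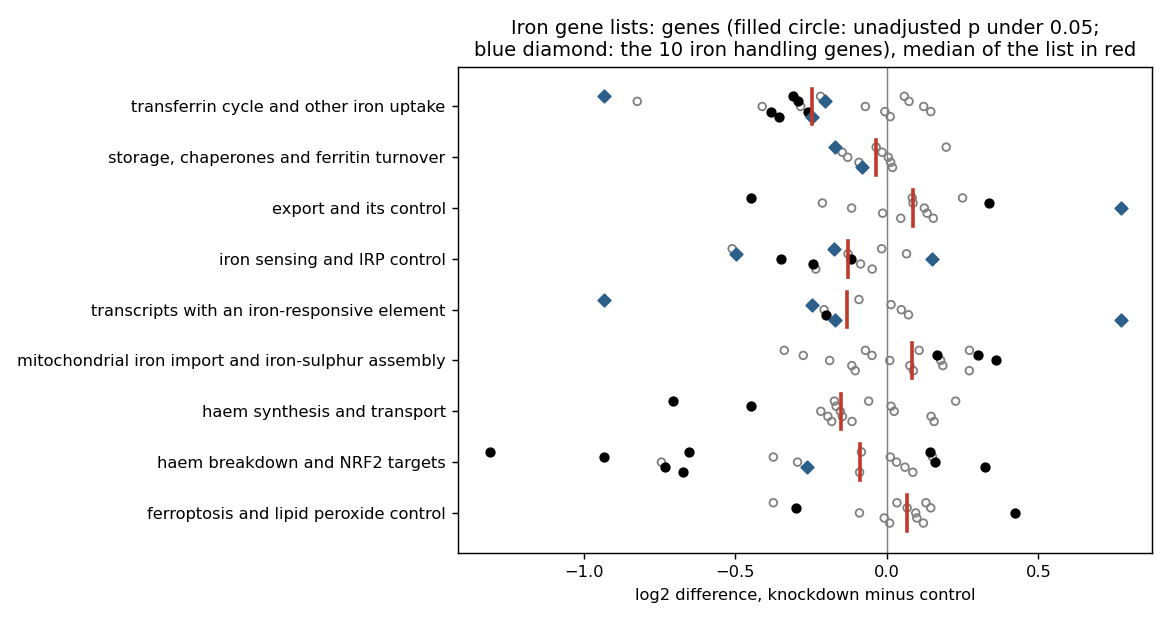
Log2 difference of the knockdown from the control cohort (horizontal axis) for each gene of the 9 iron lists (rows), with genes at an unadjusted p under 0.05 as filled circles, the 10 iron handling genes as diamonds and the list median as a red bar. The NRF2 list reaches the lowest value, -1.31 for *Gsta4*, and the uptake list has the lowest median at -0.25 with the diamonds included.

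Several partners of *Hmox1* among the targets of NRF2, the transcription factor of the antioxidant response, were lower in both knockdown lines. Of 18 further genes of haem breakdown and the NRF2 response, 5 were lower, 3 were higher and 10 did not pass the unadjusted threshold. Over all genes 7.61% were lower and 4.34% higher. The median of the 18 was -0.087. *Gsta4*, a glutathione transferase for lipid aldehydes, was at 6.86 and 7.02 in the H3 and H4 lines and 8.39, 8.23 and 8.13 in the H5, scrambled and untransduced lines. The cohorts were far apart relative to the lines within them, with a log2 difference of -1.31 (standard error 0.099, adjusted p = 0.147 from limma). *Gclm*, the modifier subunit of the first enzyme of glutathione synthesis, had a log2 difference of -0.93 (standard error 0.17), *Me1* one of -0.73 (standard error 0.16), *Srxn1*, which repairs peroxiredoxins, one of -0.67 (standard error 0.13) and *Nqo1*, a quinone reductase named here after its value was seen, one of -0.65 (standard error 0.060). Other targets did not pass, with *Txnrd1* at -0.084, *Slc7a11* at -0.37 and *Hmox1* at -0.26, and *Osgin1*, also named after its value was seen, was higher at 0.33. *Nfe2l2*, which encodes NRF2, was at 0.060 and its inhibitor *Keap1* at 0.032, and neither passed. *Bach1*, a repressor of *Hmox1* likewise named afterwards, was higher at 0.14 (standard error 0.046). So was *Hmox2*, which encodes another haem oxygenase and was also named afterwards, at 0.16 (standard error 0.051). The count of lower genes was 4 to 6 over the alternative analyses, and the calls of *Me1* without H3 and of *Srxn1* without H4 were lost.

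**Figure D5:**
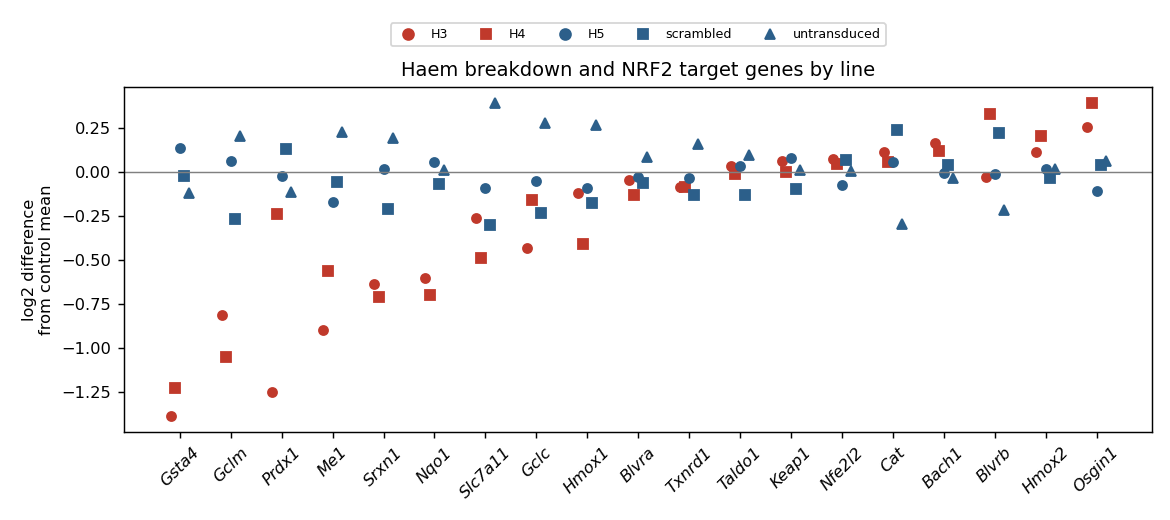
Log2 difference from the control mean (vertical axis) in each of the 5 lines for *Hmox1* and 18 other genes of haem breakdown and the NRF2 response, ordered by the cohort difference, with 1 point per array. H3 and H4 lie below all control lines for *Gsta4*, *Gclm*, *Me1*, *Srxn1* and *Nqo1*.

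NRF2 binds antioxidant-response elements with the core TGACNNNGC, where N is any base, and its matches in the promoters of the lower genes with a promoter window, which *Gsta4* did not have, are shown with 10 bases on either side. The windows of *Gclm*, *Me1* and *Srxn1* held 1 match each, read on the strand opposite to the gene for *Gclm* and *Srxn1*, and the window of *Nqo1* held none. The stretches lie at chr3:122245413-122245441 (plus strand), chr9:86695902-86695930 (minus strand) and chr2:152105542-152105570 (plus strand) of GRCm38.p6, and the capitals mark the match.
Gclm: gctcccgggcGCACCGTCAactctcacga
Me1: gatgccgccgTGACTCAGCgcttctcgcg
Srxn1: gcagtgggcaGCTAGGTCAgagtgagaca
Of all 32851 windows 12.4% held such a match. Of the 10 iron handling genes *Ncoa4* held one, in 1 of its 3 windows.

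Markers were examined for the labelled cell type and for cells in which these genes are prominent. Of the epithelial markers, the keratins *Krt8* and *Krt18* ranged from 11.81 to 12.26 and from 11.57 to 11.71 over the lines. *Epcam* was at 5.61 in every line but H3 (5.75), and *Cdh1* ranged from 6.05 to 6.16. Whether a marker was expressed cannot be read from these levels alone. No epithelial, erythroid, fibroblast or endothelial marker passed the unadjusted threshold in limma. Of 7 macrophage and leukocyte markers 2 were higher, beside 4.34% of all genes. These were *Cd68* (0.95), a lysosomal protein, and *Csf1r* (0.20), which ranged from only 5.26 to 5.54 over the lines. The summed level of the 7 was 11.27 to 11.35 in the knockdown lines and 10.51 to 10.66 in the control lines (log2 of the summed linear values). Without *Cd68*, a sum added after its value was seen, it was 8.90 to 9.26 in the knockdown lines and 8.90 to 9.17 in the control lines, so that the cohorts overlapped. *Ptprc* (-0.031), *Adgre1* (-0.032), *Lyz2* (0.013), *Cd14* (-0.011) and *Itgam* (0.19) did not pass. The samples were cultures of a carcinoma line, and their labels name no such cells. Any part of such cells in the level of *Slc40a1* and *Hmox1*, genes that macrophages express strongly, was not tested.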

How the data were processed

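Total RNA of 5 lines was hybridised to single-colour Affymetrix Mouse Gene 1.0 ST arrays, 1 per line. Using Partek Genomics Suite, the authors applied RMA normalization and deposited log2 expression for 35556 probe sets. No version of either was found in the sources. RMA makes the array distributions alike, so a change shared by most genes would not be seen. The platform annotation gave 1 symbol for 21789 probe sets and several for 1621, which were not named. Of the former, 21698 had their gene ID in RefSeq (GRCm38.p6), which was used for current symbols and for promoter sequences. Where a gene had several probe sets (999 of 19938 genes), the one with the highest mean was used. Lines were grouped by their labelled ARID4B level.

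Knockdown and control lines were compared by limma 3.58.1 under R 4.3.3, using lmFit and eBayes (1.58 prior and 3 residual degrees of freedom, Benjamini-Hochberg adjustment over all genes), after the step had been tested on simulated data. The 10 genes, the lists and the tests were chosen with earlier results of these data known. The text names the 10 genes, up to 4 genes per iron list with the largest differences among those at an unadjusted p under 0.05 whose cohorts did not overlap, the 5 genes nearest to *Tfrc*, and proliferation genes and markers. Lists are described by counts and medians. Results were recomputed with each line omitted, with probe sets averaged, without the lowest 1 in 3 genes, after median subtraction or a further quantile normalization, with trend and robust options, and by an unmoderated equal-variance test. Figures were drawn with matplotlib 3.10.9.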

Additional observations from a re-analysis of the deposited data

How the results depend on the processing

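Over the 11 alternatives the *Tfrc* difference ran from -1.15 to -0.69 and moved by less than the SD of the control lines, 0.46. Its sign did not change, but omitting 1 line could not reverse cohorts that do not overlap. Changing the test, omitting low genes or averaging probe sets left the value as it was. Of 99 values of the other 9 genes under alternatives, 86 kept their direction and side of the unadjusted threshold, 7 newly passed it, 4 no longer passed it and 2 changed sign: *Slc11a2* (-0.53 to 0.039 without 1 line, positive without H3) and *Steap3* (-0.64 to 0.23, positive without H4). The number of these 9 genes at the threshold was 1, with 2 after subtraction of array medians and after another quantile normalization, 0 without the lowest 1 in 3 genes, and 0 to 4 when 1 line was left out. Over all genes, 835 were lower with the unmoderated test and 776 to 1986 without 1 line, and 548 were higher with array medians subtracted, 1398 after another quantile normalization and 408 to 4901 without 1 line. Of the 115 further iron genes the count of higher ones was 8, with 5 in the unmoderated test, 5 with trend and robust options, 4 with array medians subtracted, 16 after another quantile normalization, 5 without the lowest 1 in 3 genes and 2 to 14 without 1 line. The count of lower uptake genes was 5, with 2 in the unmoderated test and 2 to 4 without 1 line. The cause of these changes was not tested. Of 297 values of the picked iron list genes, *Arid4b* and the 5 genes nearest to *Tfrc*, 67 no longer passed. None changed sign. The cohorts did not overlap in any of these genes, so leaving out 1 line could not reverse the sign. Where H3 or H4 was left out, the other was taken to vary as much as the controls do. No paired analysis was possible because the lines carry no shared replicate numbers or batches. With 5 arrays, intervals are wide and small differences could not be resolved.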
